A study of Mus musculus with 12 samples.

Results

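The 40 cell cycle and proliferation genes described here were chosen by name, with no measured value in the rule. Earlier results of these data were known when they were chosen. All 40 were found among the 55487 genes of the count table, and all 40 were among the 15425 genes that passed the filter on low counts. They comprise 10 genes of origin licensing and the G1/S cyclins, 6 of nucleotide supply and DNA synthesis, 6 mitotic cyclins and kinases, 3 of the chromosomal passenger complex, 4 of the spindle checkpoint and the anaphase-promoting complex, 7 of the spindle, kinetochore and cytokinesis, and 4 of chromatin and related functions.

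The libraries were poly(A) RNA-seq of CD11b-positive cells pulled with magnetic beads from papain-digested cerebral cortex of male mice, with 12 libraries in 4 groups of 3 mice. Wild-type (WT) mice and App NL-G-F mice, which carry a humanised Aβ sequence with the Swedish, Iberian and Arctic mutations in their own App gene, received either PBS (vehicle) or rh Bri2 BRICHOS R221E, a recombinant human chaperone domain, at 10 mg/kg. Every group received 24 intravenous injections over 12 weeks from the age of 9 months and was then left for 4 weeks without treatment. The groups are called WT vehicle, WT BRICHOS, App vehicle and App BRICHOS. The knock-in is driven by the native App promoter in every cell that uses it, and gene counts do not read its point mutations, so that the strain labels could not be checked by the targeted gene.

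Dividing cells pass from G1 through DNA synthesis (S) and G2 to mitosis (M). Licensing proteins load the MCM helicase onto replication origins, E2F factors switch on the enzymes that make nucleotides and copy DNA, and the B-Myb, FOXM1 and DREAM complexes later control the cyclins, kinases and spindle proteins of mitosis. Microglia of the adult brain renew themselves slowly under signals through the CSF1 receptor, and they multiply around amyloid plaques.

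Library totals ran from 12433402 to 17889654 counts, and the 40 genes took 0.0420% to 0.0496% of them. Levels are given as CPM, counts divided by library size after scaling by TMM, a trimmed mean of ratios. At these depths 3 counts correspond to 0.168 to 0.241 CPM of the unscaled totals. The defining markers of microglia were abundant in every library, with Csf1r between 6214 and 8388 CPM, while the summed level of 4 T cell markers did not pass 0.656 CPM in any library. Mitochondrial genes took 1.62% to 2.06% of the counts in the 6 WT libraries and 1.08% to 1.21% in the 6 App libraries, without overlap, and the part of this in the strain differences was not tested. Differences were tested with edgeR's quasi-likelihood test over all 15425 genes with Benjamini-Hochberg adjustment, abbreviated below as edgeR adjusted p, and a gene is called where this is under 0.05. Log2 fold changes are those of this fit.

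With vehicle, genes called higher in App mice were found in every role except origin licensing and the G1/S cyclins. Of the 40 genes, 16 were called higher and 1 lower, that is 40.0% higher, where 20.1% of all tested genes were called higher and 16.9% lower, 37% in all. Of the 40, 24 had an unadjusted p under 0.05, against 46.6% of all tested genes. The median log2 fold change over the 40 was 0.46, against -0.02 over all tested genes, and 35 of the 40 had a positive value. Groups did not overlap for 25 genes that were higher and 3 that were lower (70.0% of the 40), where 25.5% and 25.3% of all tested genes did so, 50.9% in all. The 20 mitotic genes held 11 of the calls, all higher, with a median of 0.87 and positive values in 20 of 20. The 16 genes of licensing and DNA synthesis held 3 calls higher and 1 lower, with a median of 0.26. All 3 higher calls were among the 6 genes of DNA synthesis (50%, median 0.31), and 0 of the 10 licensing genes were called higher. In bulk RNA a larger number of dividing cells and more RNA of the 40 genes in each cell cannot be told apart.

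The scale mattered for the small differences. With library totals in place of TMM the median of all genes moved by -0.19, the calls over all genes went from 3099 higher and 2611 lower to 2004 higher and 5198 lower, and the 40 genes gave 14 calls higher and 4 lower. The values of Mcm7, Rrm1, Tk1, Plk1 and Hmgb2 changed sign with it, and none of these was called on the TMM scale in this comparison.

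**Figure D1:**
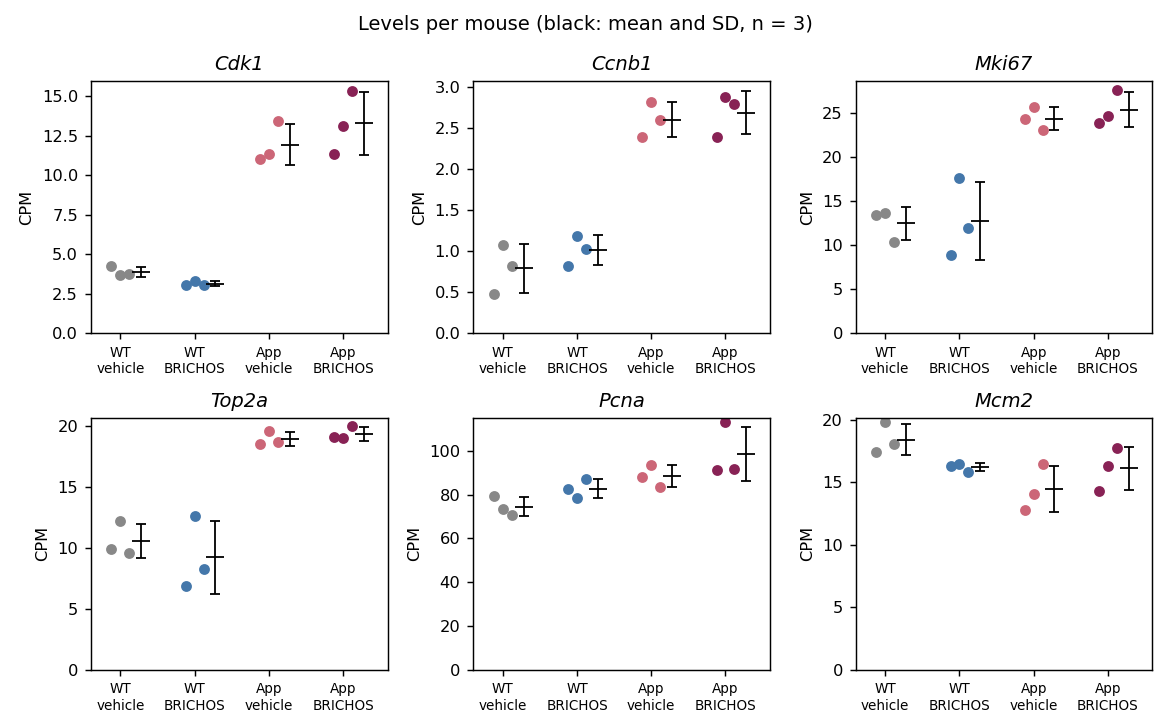
CPM of 6 genes in each mouse by group, with the mean and SD of 3 mice in black. The App mice of both treatments lie above all 6 WT mice for Cdk1, Ccnb1, Mki67 and Top2a, where the lowest App level of Cdk1 is 11.01 and the highest WT level 4.25 CPM, while Pcna and Mcm2 differ little between groups.

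The upstream sequences of 7 of these genes are shown. They set the letters of genes that were higher in App mice beside those of 2 helicase genes that were not called higher with vehicle. Of these 2, Mcm6 was called higher with BRICHOS (edgeR adjusted p = 0.0142), and every App mouse was above every WT mouse for it. Each line gives the 100 bases before the RefSeq start on GRCm38.p6, 5′ to 3′ in the direction of the gene, with capitals for motifs found on either strand. The first motif is CCAAT, the box of the factor NF-Y, which reads ATTGG on the other strand. The next, the cell cycle homology region, was searched as TTTGAA, whose reverse complement is TTCAAA, and also as TTCGAA, which is its own reverse complement. The E2F core was searched in 4 forms, namely TTGGCGC, the form with CC in the middle or TTCCCGC, the form with CG or TTCGCGC, and the form with GC or TTGCCGC. The first 5 lines are genes of mitosis and proliferation, and the last 2 are the helicase subunits Mcm2 and Mcm6.
Cdk1 (chr10:69352913-69353012, minus strand): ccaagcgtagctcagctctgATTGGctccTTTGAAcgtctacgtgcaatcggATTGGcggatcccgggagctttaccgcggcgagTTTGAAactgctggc
Ccnb2 (chr9:70421555-70421654, minus strand): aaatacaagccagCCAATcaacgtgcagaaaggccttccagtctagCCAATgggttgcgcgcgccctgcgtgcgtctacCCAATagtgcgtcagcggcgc
Cenpf (chr1:189688087-189688186, minus strand): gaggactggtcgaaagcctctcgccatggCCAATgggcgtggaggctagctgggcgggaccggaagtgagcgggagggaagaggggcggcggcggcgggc
Top2a (chr11:99024190-99024289, minus strand): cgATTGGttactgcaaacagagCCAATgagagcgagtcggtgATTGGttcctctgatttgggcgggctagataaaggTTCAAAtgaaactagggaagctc
Mki67 (chr7:135716380-135716479, minus strand): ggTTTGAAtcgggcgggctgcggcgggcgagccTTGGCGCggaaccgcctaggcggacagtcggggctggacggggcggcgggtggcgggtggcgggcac
Mcm2 (chr6:88898781-88898880, minus strand): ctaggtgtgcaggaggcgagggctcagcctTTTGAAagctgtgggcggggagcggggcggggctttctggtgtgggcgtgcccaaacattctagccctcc
Mcm6 (chr1:128359706-128359805, minus strand): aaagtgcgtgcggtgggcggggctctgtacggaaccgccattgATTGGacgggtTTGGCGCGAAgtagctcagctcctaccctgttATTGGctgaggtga
Cdk1 and Top2a show both CCAAT and the homology region in this stretch, Ccnb2 shows CCAAT alone in 3 copies and Cenpf shows it alone in 1. Mki67 shows the homology region and an E2F core, Mcm2 the homology region alone, and Mcm6 has 2 overlapping E2F cores between its CCAAT boxes.

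RefSeq promoters were found for 33 of the 40 genes, and Ccne2, Aurkb, Mcm4, Ccna2, Stmn1, Kif20a and Tpx2 had no entry. In the 250 bases before the start, CCAAT stood in 14 of 16 mitotic genes (87.5%) and in 9 of 14 genes of licensing and synthesis (64.3%), against 37.5% of the 27025 genes of the promoter table. The homology region stood in 7 of the 16 mitotic genes (43.8%) and 2 of the 14 (14.3%), against 19.6% of all genes. The E2F core had the opposite order, with 2 of 16 mitotic genes (12.5%) and 7 of 14 of licensing and synthesis (50%), against 9.01% of all. With the 50 bases after the start included, the homology region reached 12 of 16 mitotic genes (75.0%) and the E2F core 9 of 14 (64.3%), against 21.7% and 10.9% of all genes. A match describes the letters of the window and not a bound site.

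Among the mitotic cyclins and kinases, 4 of 6 were called higher in App mice with vehicle and 6 of 6 with BRICHOS, where 20.8% of all genes were called higher and 21.8% lower, 42.5% in all. Cdk1, the kinase that drives entry into mitosis, stood at 4.25, 3.68 and 3.73 CPM in the WT vehicle mice and 3.02, 3.32 and 3.03 in the WT BRICHOS mice. App mice had 11.01, 11.4 and 13.4 with vehicle and 11.4, 13.1 and 15.3 with BRICHOS. All 6 App mice were above all 6 WT mice by a wide margin. Its log2 fold change between the strains was 1.62 ± 0.14 (SE, edgeR adjusted p = 5.5e-06) with vehicle and 2.08 ± 0.15 (SE, edgeR adjusted p = 7.45e-07) with BRICHOS. Ccnb1 encodes cyclin B1, the partner of Cdk1, and lay low at 0.479, 1.07 and 0.820 CPM in the WT vehicle mice and 0.819, 1.18 and 1.03 in the WT BRICHOS mice. App mice had 2.40, 2.82 and 2.59 with vehicle and 2.39, 2.88 and 2.79 with BRICHOS. The strains did not overlap, and the log2 fold change with vehicle was 1.70 ± 0.28 (SE, edgeR adjusted p = 0.000583), on counts of 7 to 18 in the WT vehicle libraries. The second B-type cyclin, Ccnb2, was measured at 1.78, 1.36 and 1.86 CPM in the WT vehicle mice and 0.945, 2.25 and 2.40 in the WT BRICHOS mice. App mice had 4.73, 4.46 and 4.67 with vehicle and 4.45, 3.97 and 4.83 with BRICHOS. It separated the strains in the same way, with a log2 fold change of 1.47 ± 0.29 (SE, edgeR adjusted p = 0.00194) with vehicle.

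Ccna2, cyclin A2 of S phase and G2, was found at 4.04, 3.91 and 1.71 CPM in the WT vehicle mice and 2.08, 3.94 and 3.61 in the WT BRICHOS mice. App mice had 6.02, 5.78 and 8.22 with vehicle and 4.97, 6.85 and 6.95 with BRICHOS. The App mice were all above the WT mice, but WT vehicle mouse 3 and WT BRICHOS mouse 1 lay well under the other WT mice. The strain difference was 1.04 ± 0.32 (SE, edgeR adjusted p = 0.0248) with vehicle, and it was no longer called when WT vehicle mouse 3 or App vehicle mouse 3 was left out (edgeR adjusted p = 0.0672 and 0.0814). With BRICHOS the strain difference was 0.96 ± 0.32 (SE, edgeR adjusted p = 0.0307). That call was lost with library totals and without WT BRICHOS mouse 1 or App BRICHOS mouse 2 or 3. Plk1, a kinase of spindle assembly, gave 2.74, 2.08 and 1.94 CPM in the WT vehicle mice and 1.07, 1.97 and 1.77 in the WT BRICHOS mice. App mice had 2.33, 2.23 and 2.37 with vehicle and 2.45, 3.52 and 3.47 with BRICHOS. With vehicle the strains overlapped, and the log2 difference was 0.04 ± 0.26 (SE, edgeR adjusted p = 0.922). With BRICHOS every App mouse was above every WT mouse, at 0.96 ± 0.26 (SE, edgeR adjusted p = 0.0105), and the difference between these 2 strain differences, 0.92 ± 0.36 (SE, edgeR adjusted p = 0.275), was not called. Aurka, the centrosomal Aurora kinase, had 1.71, 2.43 and 2.01 CPM in the WT vehicle mice and 1.64, 1.52 and 1.49 in the WT BRICHOS mice. App mice had 2.98, 3.28 and 2.22 with vehicle and 2.78, 1.92 and 2.79 with BRICHOS. The strains overlapped with vehicle and not with BRICHOS. Aurka was called with BRICHOS alone, at 0.68 ± 0.24 (SE, edgeR adjusted p = 0.0363), a call lost in 11 alternative analyses.

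The chromosomal passenger complex corrects faulty attachments of chromosomes to the spindle. Of its 3 members, 1 was called higher with vehicle and 3 of 3 with BRICHOS, against 20.1% and 20.8% of all tested genes. Cdca8, the borealin subunit, stood at 1.51, 1.60 and 1.64 CPM in the WT vehicle mice and 1.07, 1.86 and 1.03 in the WT BRICHOS mice. App mice had 3.43, 2.30 and 3.78 with vehicle and 4.13, 3.45 and 3.32 with BRICHOS. No App mouse was as low as any WT mouse, and the log2 fold change was 0.996 ± 0.27 (SE, edgeR adjusted p = 0.0129) with vehicle and 1.45 ± 0.27 (SE, edgeR adjusted p = 0.00117) with BRICHOS. Birc5, survivin, was measured at 1.57, 1.01 and 1.79 CPM in the WT vehicle mice and 0.756, 2.20 and 1.49 in the WT BRICHOS mice. App mice had 2.59, 2.49 and 3.33 with vehicle and 2.58, 2.94 and 3.70 with BRICHOS. Its App values also lay above all WT values, and the vehicle comparison was not called, at 0.95 ± 0.35 (SE, edgeR adjusted p = 0.0515), while that with BRICHOS was 1.04 ± 0.34 (SE, edgeR adjusted p = 0.0291). The call with BRICHOS was lost in 7 alternatives: library totals, edgeR or DESeq2 fitted on the compared groups alone, and without WT BRICHOS mouse 1 or 3 or App BRICHOS mouse 2 or 3. Aurkb, the kinase of the complex, gave 1.71, 1.30 and 1.42 CPM in the WT vehicle mice and 1.13, 1.58 and 1.14 in the WT BRICHOS mice. App mice had 1.49, 2.63 and 2.22 with vehicle and 3.49, 2.43 and 2.79 with BRICHOS. With vehicle the groups overlapped, at 0.51 ± 0.27 (SE, edgeR adjusted p = 0.159), and with BRICHOS they did not, at 1.17 ± 0.27 (SE, edgeR adjusted p = 0.00428).

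Of the checkpoint and anaphase genes, 2 of 4 were called higher with vehicle and 3 of 4 with BRICHOS, against 20.1% and 20.8% of all tested genes. Ube2c, the ubiquitin-conjugating enzyme of the anaphase-promoting complex, stood at 1.51, 1.36 and 1.04 CPM in the WT vehicle mice and 0.945, 1.63 and 2.12 in the WT BRICHOS mice. App mice had 3.43, 2.89 and 4.08 with vehicle and 2.84, 3.58 and 5.06 with BRICHOS. The strains did not overlap, and the difference was 1.40 ± 0.32 (SE, edgeR adjusted p = 0.00512) with vehicle. Bub1, a kinase of the spindle checkpoint, had 1.57, 1.07 and 1.27 CPM in the WT vehicle mice and 1.01, 1.13 and 1.26 in the WT BRICHOS mice. App mice had 2.27, 1.90 and 2.67 with vehicle and 2.32, 2.69 and 3.17 with BRICHOS. It was higher in every App mouse, at 0.80 ± 0.24 (SE, edgeR adjusted p = 0.0202) with vehicle and 1.26 ± 0.24 (SE, edgeR adjusted p = 0.00127) with BRICHOS, and the vehicle call was lost in 10 of 22 alternative analyses, with either DESeq2 fit among them (DESeq2 adjusted p = 0.0542 and 0.144). Cdc20, the activator of that complex, was found at 2.81, 2.61 and 2.31 CPM in the WT vehicle mice and 1.83, 2.93 and 2.003 in the WT BRICHOS mice. App mice had 2.85, 3.68 and 4.15 with vehicle and 3.87, 3.77 and 5.06 with BRICHOS. Its groups did not overlap in either comparison of strains, with 0.46 ± 0.23 (SE, edgeR adjusted p = 0.141) with vehicle and 0.90 ± 0.23 (SE, edgeR adjusted p = 0.00808) with BRICHOS. Bub1b, which encodes the checkpoint protein BubR1, was called in neither, with log2 differences of 0.36 and 0.23.

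Genes of the spindle, kinetochore and cytokinesis were called higher in 4 of 7 cases with vehicle and 5 of 7 with BRICHOS. The shares of all tested genes were 20.1% and 20.8%. Kif20a, a kinesin of the central spindle, stood at 2.05, 1.72 and 1.56 CPM in the WT vehicle mice and 1.13, 2.14 and 1.77 in the WT BRICHOS mice. App mice had 4.86, 3.94 and 3.85 with vehicle and 3.94, 4.41 and 5.14 with BRICHOS. The App mice held about the same level in both groups, well above the WT mice, and the log2 difference with vehicle was 1.24 ± 0.24 (SE, edgeR adjusted p = 0.00179). Cenpe, the motor protein of the kinetochore, gave 3.01, 2.55 and 2.98 CPM in the WT vehicle mice and 2.02, 3.27 and 2.86 in the WT BRICHOS mice. App mice had 5.89, 5.51 and 6.97 with vehicle and 6.13, 7.81 and 5.74 with BRICHOS. No values overlapped between strains, at 1.10 ± 0.20 (SE, edgeR adjusted p = 0.00139) with vehicle. Cenpf, another kinetochore protein, was at 4.04, 3.97 and 3.28 CPM in the WT vehicle mice and 2.90, 3.94 and 3.03 in the WT BRICHOS mice. App mice had 7.12, 6.76 and 7.04 with vehicle and 6.46, 6.65 and 6.42 with BRICHOS. App mice were again all above WT mice. The difference was 0.89 ± 0.15 (SE, edgeR adjusted p = 0.000837) with vehicle and 0.98 ± 0.15 (SE, edgeR adjusted p = 0.000354) with BRICHOS.

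Tpx2, which activates Aurora A on spindle microtubules, was measured at 3.42, 3.68 and 3.20 CPM in the WT vehicle mice and 1.89, 3.38 and 3.09 in the WT BRICHOS mice. App mice had 5.57, 6.10 and 6.30 with vehicle and 6.26, 6.53 and 6.65 with BRICHOS. WT BRICHOS mouse 1 was the lowest, and all App mice lay above all WT mice, with a difference of 0.80 ± 0.19 (SE, edgeR adjusted p = 0.00678) with vehicle. Kif11, the motor that pushes spindle poles apart, had 4.66, 4.03 and 3.20 CPM in the WT vehicle mice and 2.52, 4.00 and 2.86 in the WT BRICHOS mice. App mice had 4.53, 5.05 and 5.11 with vehicle and 5.68, 6.33 and 6.72 with BRICHOS. The strains overlapped with vehicle, at 0.30 ± 0.20 (SE, edgeR adjusted p = 0.255), and not with BRICHOS, at 0.99 ± 0.20 (SE, edgeR adjusted p = 0.00191). The bundling proteins Prc1 and Nusap1 were not called in either comparison, with log2 differences of 0.85 and 0.42 with vehicle and 0.78 and 0.66 with BRICHOS. For both genes WT BRICHOS mouse 1 had the lowest value of the 12 mice, at 1.70 CPM for Prc1 and 0.945 CPM for Nusap1.

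Mki67, the Ki-67 protein that coats mitotic chromosomes and is the usual stain for cycling cells, stood at 13.5, 13.7 and 10.4 CPM in the WT vehicle mice and 8.88, 17.6 and 11.9 in the WT BRICHOS mice. App mice had 24.4, 25.7 and 23.1 with vehicle and 23.9, 24.7 and 27.7 with BRICHOS. The lowest App mouse was above the highest WT mouse, which was WT BRICHOS mouse 2. The log2 fold change was 0.96 ± 0.20 (SE, edgeR adjusted p = 0.00293) with vehicle and 0.99 ± 0.20 (SE, edgeR adjusted p = 0.00203) with BRICHOS. Top2a, the topoisomerase that untangles sister chromatids, gave 9.93, 12.2 and 9.61 CPM in the WT vehicle mice and 6.87, 12.6 and 8.24 in the WT BRICHOS mice. App mice had 18.6, 19.6 and 18.7 with vehicle and 19.1, 19.0 and 20.02 with BRICHOS. The 6 App mice were close together and above all WT mice, with differences of 0.84 ± 0.18 (SE, edgeR adjusted p = 0.00378) and 1.06 ± 0.18 (SE, edgeR adjusted p = 0.000692).

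Hmgb2 and Stmn1 did not follow these genes. Hmgb2, a chromatin protein used also outside division, had group means of 30.8 ± 7.02, 30.8 ± 6.22, 31.2 ± 2.604 and 33.2 ± 7.37 CPM (SD, n = 3) in the order used above, and a vehicle log2 difference of 0.01 ± 0.20 (SE, edgeR adjusted p = 0.964). Stmn1, stathmin, which destabilises microtubules and is also made by neural cells, stood at 51.4, 48.8 and 29.2 CPM in the WT vehicle mice and 51.8, 32.9 and 17.2 in the WT BRICHOS mice. App mice had 24.3, 25.1 and 26.7 with vehicle and 33.3, 28.2 and 25.2 with BRICHOS. WT mice spread more than App mice, and the vehicle difference was -0.77 ± 0.32 (SE, edgeR adjusted p = 0.0802), with all App vehicle mice under all WT vehicle mice. The summed level of 5 oligodendrocyte markers was 9439 to 16614 CPM in WT vehicle mice, 4062 to 14998 in WT BRICHOS mice, 3030 to 5405 in App vehicle mice and 4328 to 5819 in App BRICHOS mice, and its part in the Stmn1 values was not tested.

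DNA synthesis genes were called higher in 3 of 6 cases with vehicle and 5 of 6 with BRICHOS, against 20.1% and 20.8% of all tested genes. Rrm2, the subunit of ribonucleotide reductase that is made in S phase, stood at 1.78, 1.66 and 1.64 CPM in the WT vehicle mice and 1.26, 1.41 and 1.77 in the WT BRICHOS mice. App mice had 2.85, 3.15 and 4.89 with vehicle and 3.36, 4.16 and 4.31 with BRICHOS. Every App mouse was above every WT mouse, and App vehicle mouse 3 was the highest. The difference was 1.09 ± 0.24 (SE, edgeR adjusted p = 0.00444) with vehicle and 1.40 ± 0.24 (SE, edgeR adjusted p = 0.000745) with BRICHOS. Its partner Rrm1, which is less tied to S phase, was at 28.1, 30.4 and 25.7 CPM in the WT vehicle mice and 29.2, 27.0 and 25.9 in the WT BRICHOS mice. App mice had 30.0, 30.1 and 33.6 with vehicle and 36.5, 35.6 and 39.5 with BRICHOS. Vehicle groups overlapped, at 0.15 ± 0.08 (SE, edgeR adjusted p = 0.168), while the BRICHOS groups did not, at 0.44 ± 0.08 (SE, edgeR adjusted p = 0.0012).

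Uhrf1, which carries DNA methylation through replication, gave 2.94, 3.62 and 4.10 CPM in the WT vehicle mice and 2.90, 3.89 and 4.18 in the WT BRICHOS mice. App mice had 5.96, 5.58 and 5.63 with vehicle and 6.004, 6.33 and 6.80 with BRICHOS. The strains were apart, at 0.69 ± 0.17 (SE, edgeR adjusted p = 0.00903) with vehicle. Tyms, thymidylate synthase, had 5.68, 6.29 and 6.26 CPM in the WT vehicle mice and 4.41, 6.08 and 6.07 in the WT BRICHOS mice. App mice had 7.83, 7.94 and 7.78 with vehicle and 8.91, 8.45 and 8.61 with BRICHOS. All App values were above all WT values, and the difference was 0.37 ± 0.14 (SE, edgeR adjusted p = 0.0521) with vehicle and 0.65 ± 0.14 (SE, edgeR adjusted p = 0.00264) with BRICHOS. Pcna, the clamp that holds DNA polymerase and also serves repair, was the member with the highest level per kb of exon, a group mean of 31.1 CPM per kb in WT vehicle mice. It was measured at 79.3, 73.6 and 70.7 CPM in the WT vehicle mice and 82.4, 78.4 and 87.2 in the WT BRICHOS mice. App mice had 88.1, 93.7 and 83.7 with vehicle and 91.3, 113 and 91.8 with BRICHOS. The difference was small, at 0.25 ± 0.09 (SE, edgeR adjusted p = 0.0411) with vehicle and 0.26 ± 0.09 (SE, edgeR adjusted p = 0.0312) with BRICHOS. The vehicle call was lost in 9 alternatives, among them without WT vehicle mouse 2 or 3, App vehicle mouse 1 or 2 or WT BRICHOS mouse 2. The BRICHOS call was lost in 7, among them edgeR or DESeq2 on the compared groups alone, and without WT BRICHOS mouse 1 or 2 or App BRICHOS mouse 2. With library totals in place of TMM Pcna was not called in either comparison and its sign turned in the second (-0.018). Tk1, thymidine kinase, was not called, at 0.09 and 0.38.

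Licensing genes and G1/S cyclins had the lowest median log2 fold change of the roles with vehicle, 0.19. With vehicle 0 of 10 were called higher and 1 lower, by edgeR, and 4 of the 10 had an unadjusted p under 0.05. Of all tested genes 20.1% were called higher and 16.9% lower, and 46.6% had an unadjusted p under 0.05. With BRICHOS 3 of 10 were called, all higher, where 20.8% of all tested genes were called higher and 42.5% in all. Mcm2, a helicase subunit, stood at 17.4, 19.8 and 18.0 CPM in the WT vehicle mice and 16.3, 16.4 and 15.9 in the WT BRICHOS mice. App mice had 12.8, 14.0 and 16.4 with vehicle and 14.3, 16.3 and 17.8 with BRICHOS. The App vehicle mice were all lower than the WT vehicle mice, while the 2 BRICHOS groups overlapped. The log2 difference was -0.35 ± 0.11 (SE, edgeR adjusted p = 0.0265) with vehicle and -0.01 ± 0.11 (SE, edgeR adjusted p = 0.953) with BRICHOS, and the former call was lost when any one of 4 mice was left out (WT vehicle mouse 2 or 3, App vehicle mouse 1 or 2), with edgeR adjusted p from 0.0509 to 0.123.

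Mcm5, another subunit of the same ring, gave 13.8, 14.9 and 14.2 CPM in the WT vehicle mice and 11.1, 12.0 and 10.4 in the WT BRICHOS mice. App mice had 13.3, 14.2 and 14.5 with vehicle and 16.3, 18.9 and 14.3 with BRICHOS. The WT BRICHOS mice were the lowest group and did not overlap with any other. The strain difference was -0.03 ± 0.11 (SE, edgeR adjusted p = 0.84) with vehicle and 0.56 ± 0.11 (SE, edgeR adjusted p = 0.00168) with BRICHOS. Mcm6 had 20.4, 22.6 and 17.9 CPM in the WT vehicle mice and 19.5, 20.6 and 21.6 in the WT BRICHOS mice. App mice had 25.6, 22.8 and 25.9 with vehicle and 27.8, 29.4 and 23.2 with BRICHOS. All App mice were above all WT mice, though the nearest values were almost equal, and the difference was 0.28 ± 0.11 (SE, edgeR adjusted p = 0.0612) with vehicle and 0.38 ± 0.11 (SE, edgeR adjusted p = 0.0142) with BRICHOS. The call of Mcm6 was lost with library totals (edgeR adjusted p = 0.367) and without App BRICHOS mouse 2 (edgeR adjusted p = 0.0501). Mcm3, Mcm4 and Mcm7 were not called, with values between -0.10 and 0.11 with vehicle and between -0.04 and 0.09 with BRICHOS, but with library totals Mcm2, Mcm3 and Mcm4 were called lower in App mice in both comparisons.

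Cdt1, which loads the helicase, was found at 8.22, 9.31 and 8.20 CPM in the WT vehicle mice and 8.69, 8.45 and 9.73 in the WT BRICHOS mice. App mice had 10.8, 12.6 and 11.1 with vehicle and 10.8, 16.3 and 10.9 with BRICHOS. Each App mouse exceeded each WT mouse, with 0.42 ± 0.16 (SE, edgeR adjusted p = 0.0589) with vehicle and 0.50 ± 0.16 (SE, edgeR adjusted p = 0.0253) with BRICHOS, and App BRICHOS mouse 2 stood apart above the rest. The call with BRICHOS was lost in 6 alternatives: library totals, edgeR or DESeq2 fitted on the compared groups alone, and without WT BRICHOS mouse 1 or 2 or App BRICHOS mouse 2. Without this last mouse the edgeR adjusted p was 0.0997. Ccne1, cyclin E1, which starts S phase with Cdk2, lay at 0.447 to 0.652 CPM in WT vehicle mice and 0.919 to 1.11 in App vehicle mice, without overlap and without a call, at 0.79 ± 0.28 (SE, edgeR adjusted p = 0.0646). Ccne2 had 9 to 24 counts and Cdc6 had 3 to 15 counts in the 12 libraries, with vehicle differences of 0.27 ± 0.40 (SE, edgeR adjusted p = 0.626) and 0.30 ± 0.48 (SE, edgeR adjusted p = 0.655). At this depth a small change could not have been detected.

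**Figure D2:**
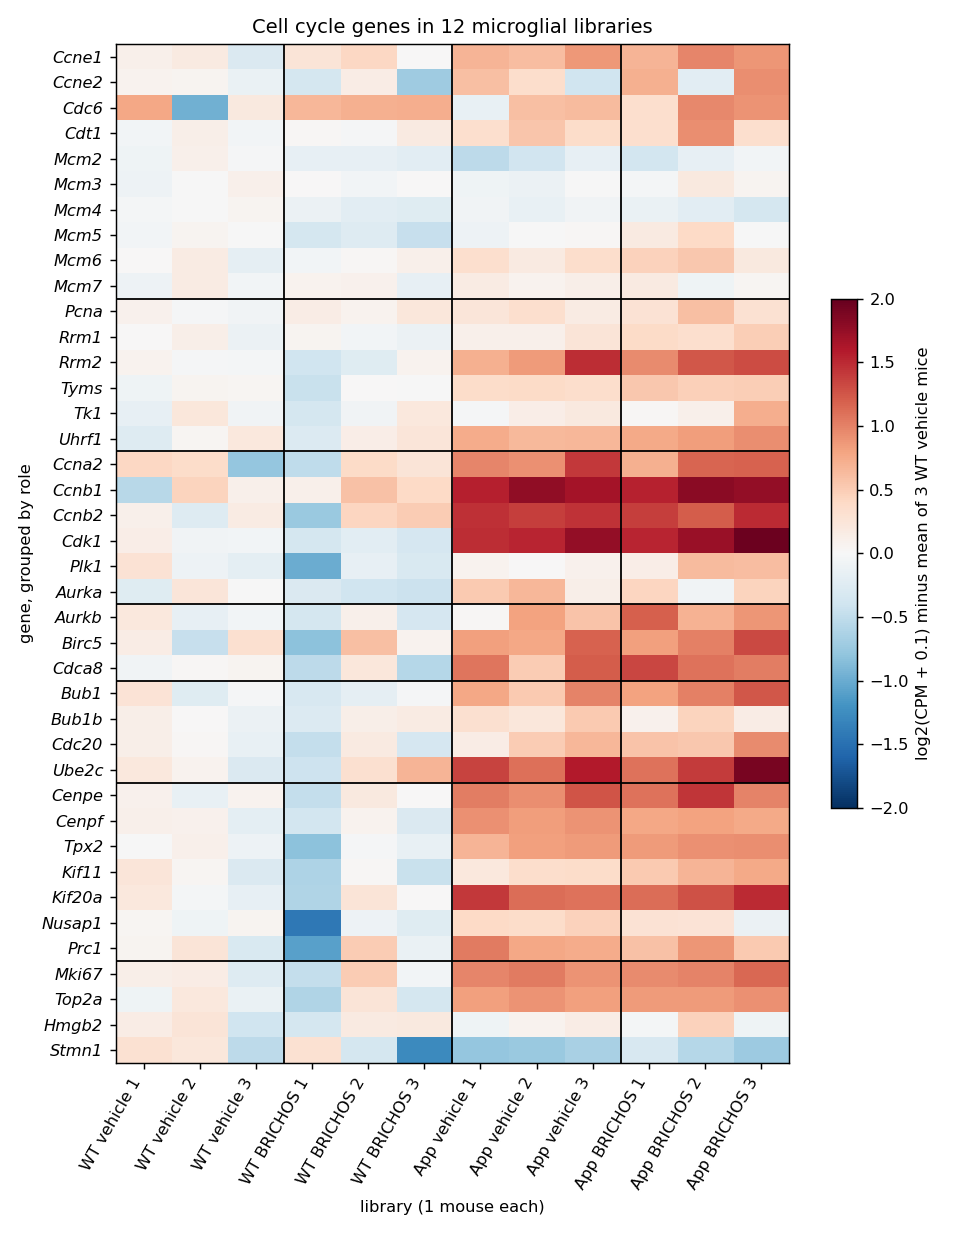
Levels of the 40 genes in each of the 12 libraries as log2(CPM + 0.1) minus the mean of the 3 WT vehicle mice, with genes in rows by role and mice in columns. The App columns are red in most mitotic rows with the deepest colour for Cdk1 and Ccnb1, the helicase rows are paler than these, and WT BRICHOS mouse 1 is blue in most mitotic rows. Plk1 in App vehicle mice lies near its WT vehicle level, and Nusap1 in App BRICHOS mouse 3 lies below its own.

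The 2 strain comparisons set different libraries against each other, but all 12 libraries were in 1 fit with a shared estimate of spread. The calls with vehicle thus also depended on the BRICHOS libraries, with 21 in place of 17 without WT BRICHOS mouse 1. With BRICHOS, 27 of the 40 genes were called higher in App mice and 0 lower by edgeR, with 31 at an unadjusted p under 0.05, all higher, against 50.1% of all tested genes. DESeq2 called 27 on all libraries and 23 on the compared groups, all higher. The 27 calls of edgeR were 67.5% of the genes, against 20.8% called higher of all tested genes. Groups did not overlap for 29 genes, all higher, where 25.3% of all genes were higher and 26.4% lower without overlap, 51.7% in all. The median log2 fold change was 0.84, against -0.04 over all tested genes. With library totals, which moved the median of all genes by -0.27 here, the calls were 20 higher and 3 lower for the 40 genes and 1590 higher and 7008 lower for all genes, in place of 3202 higher and 3358 lower.

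Calls in both comparisons, all of them higher in App mice, were made for 16 genes: Pcna, Rrm2, Uhrf1, Ccna2, Ccnb1, Ccnb2, Cdk1, Cdca8, Bub1, Ube2c, Cenpe, Cenpf, Tpx2, Kif20a, Mki67 and Top2a. Mcm2 was called with vehicle alone, 11 genes with BRICHOS alone and 12 genes in neither. A call in one and not the other is no test of the difference between them, which is given by the interaction below. Over the 6 App mice and the 6 WT mice, whatever the treatment, 21 of the 40 genes (52.5%) were higher in every App mouse and 0 lower, against 16.8% and 12.8% of all tested genes.

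**Figure D3:**
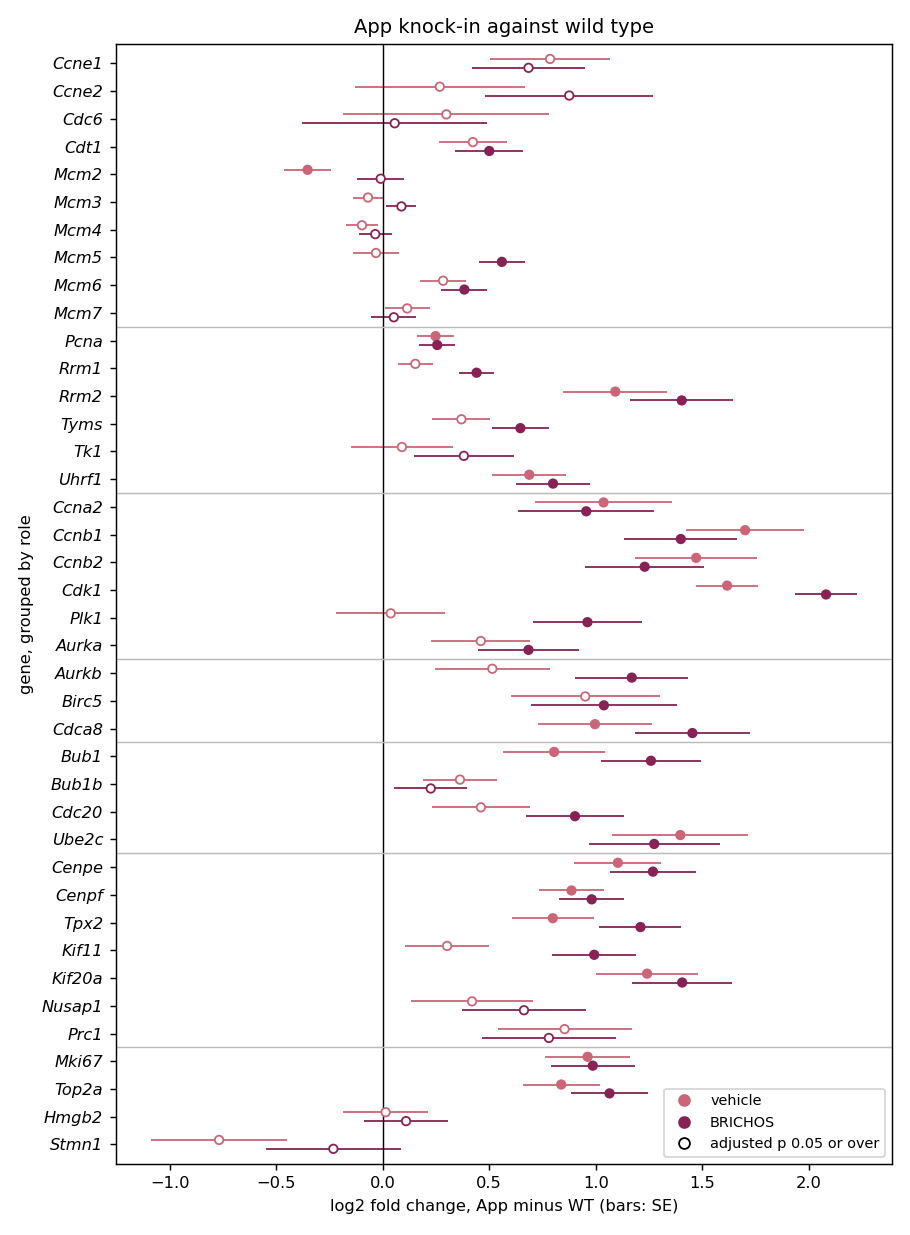
Log2 fold change of App against WT mice for the 40 genes, by role, with vehicle and with BRICHOS; bars are standard errors and open points have an adjusted p of 0.05 or over. Points of the mitotic roles lie to the right of 0 in both comparisons, up to 2.08 for Cdk1, and those of the helicase genes lie between -0.35 for Mcm2 with vehicle and 0.56 for Mcm5 with BRICHOS.

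One library, WT BRICHOS mouse 1, stood apart in the mitotic genes. Among the 6 WT mice, WT BRICHOS mouse 1 was the lowest in 16 of the 20 mitotic genes, and WT vehicle mouse 1 and WT BRICHOS mouse 2 were each the highest in 7. Without WT BRICHOS mouse 1, 22 of the 40 genes were called higher in App mice. Its median deviation over the 20 mitotic genes was -0.99 on the log2 scale from the mean of all libraries, against -0.26 and -0.49 for the other WT BRICHOS mice and 0.38 to 0.60 for the 6 App mice. No App library was lowest in more than 5 of the 20 genes.

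Of 6 microglial markers, 1 was called higher and 5 lower in App mice with vehicle, and 1 higher and 4 lower with BRICHOS. Of all tested genes 37% and 42.5% were called. The microglial sum was 21846 to 23302 CPM in App vehicle mice against 24618 to 27081 in WT vehicle mice. With BRICHOS it was 22795 to 24285 CPM against 23320 to 24511. RNA of markers of other cells was present in all libraries and also differed between the strains. All 6 astrocyte markers were called higher in App vehicle mice, with a sum of 1193 to 3824 CPM against 367 to 511 in WT vehicle mice. In App BRICHOS mice this sum was 550 to 1596 CPM against 367 to 659 in WT BRICHOS mice, with 1 of 6 called. All 6 neutrophil markers were called lower in App vehicle mice, with 13.3 to 33.8 CPM against 32.8 to 365.9, and 3 of 6 with BRICHOS. Of 5 genes of oligodendrocyte precursors, which divide in the adult brain, Cspg4 was called higher in App mice, and the defining gene Pdgfra stood at 1.71 to 2.74 CPM in App vehicle mice and 2.31 to 4.84 in WT vehicle mice. It reached 28.6 CPM in WT BRICHOS mouse 3 and was called lower in App mice with BRICHOS. Neuroblast markers summed to 1.36 to 5.14 CPM over the 12 libraries and had no call among the 2 that could be tested. All 4 markers of border macrophages were called lower in App mice in both comparisons, with sums of 117 to 154 CPM against 275 to 324 with vehicle and 114 to 155 against 364 to 444 with BRICHOS. Of 4 endothelial markers 3 were called lower in both comparisons, and of 5 tested neuronal markers 3 were called lower with vehicle and 4 with BRICHOS. Of 4 markers of ependymal and choroid plexus cells, 0 were called with vehicle by edgeR, with 1 at an unadjusted p under 0.05, and 4 were called lower with BRICHOS. The part of these cells in the values of the 40 genes was not tested.

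The count of calls was repeated without the libraries that stood highest in these markers, an analysis added after seeing the data in which the single library left in a group is assumed to vary like the other groups. Without App vehicle mice 1 and 2, the highest in astrocyte markers, 8 of the 40 genes were called, all higher, with a median log2 fold change of 0.59. Without WT vehicle mice 1 and 2, with the most neutrophil marker RNA of their group, 7 were called, all higher, with a median of 0.53. Over all genes the same fits called 9.71% higher and 6.26% lower in the first and 9.87% higher and 7.69% lower in the second. App vehicle mouse 3, the mouse left in the first, still had 1193 CPM of astrocyte markers, above the 367 to 511 CPM of the WT vehicle mice. The share of the differences that other cells carry was not tested.

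Treatment with BRICHOS gave no call among the 40 genes in either strain. In App mice 0 of 40 were called by edgeR or by either DESeq2 fit, and 1 of 40, Rrm1, had an unadjusted p under 0.05, against 10.8% of all tested genes. Over all genes 0.00648% were called lower and 0 higher. The 40 log2 differences between App BRICHOS and App vehicle mice ran from -0.25 for Nusap1 to 0.46 for Aurkb with a median of 0.14, against 0.01 over all genes, and 31 were positive. Mki67 had 0.06 ± 0.19 (SE, edgeR adjusted p = 0.948), Cdk1 0.15 ± 0.13 (SE, edgeR adjusted p = 0.748), Top2a 0.03 ± 0.18 (SE, edgeR adjusted p = 0.975) and Ccnb1 0.04 ± 0.25 (SE, edgeR adjusted p = 0.975). The nearest to a call, Rrm1, had 0.25 ± 0.08 (SE, edgeR adjusted p = 0.32), with every App BRICHOS mouse above every App vehicle mouse. Groups did not overlap for 5 genes that were higher with BRICHOS and 2 that were lower, where 6.37% and 7.09% of all genes did so, 13.5% in all. All 6 astrocyte markers were lower with BRICHOS in App mice at an unadjusted p under 0.05, with none called, and their part in these values was not tested.

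In WT mice 0 of 40 were called by edgeR or by either DESeq2 fit, and 2, Mcm4 and Mcm5, had an unadjusted p under 0.05, against 11.4% of all tested genes. The median was -0.10, against 0.00 over all genes, and 12 of the 40 values were positive. Mcm5 was nearest to a call with -0.36 ± 0.11 (SE, edgeR adjusted p = 0.277), and Mcm4 had -0.19 ± 0.08 (SE, edgeR adjusted p = 0.389). The spindle genes were negative in 7 of 7 cases, from -0.49 to -0.06. Non-overlapping groups were seen for 0 genes higher and 6 lower with BRICHOS, where 8.36% and 9.19% of all genes did so, 17.5% in all. Without WT BRICHOS mouse 1 the median was -0.03.

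**Figure D4:**
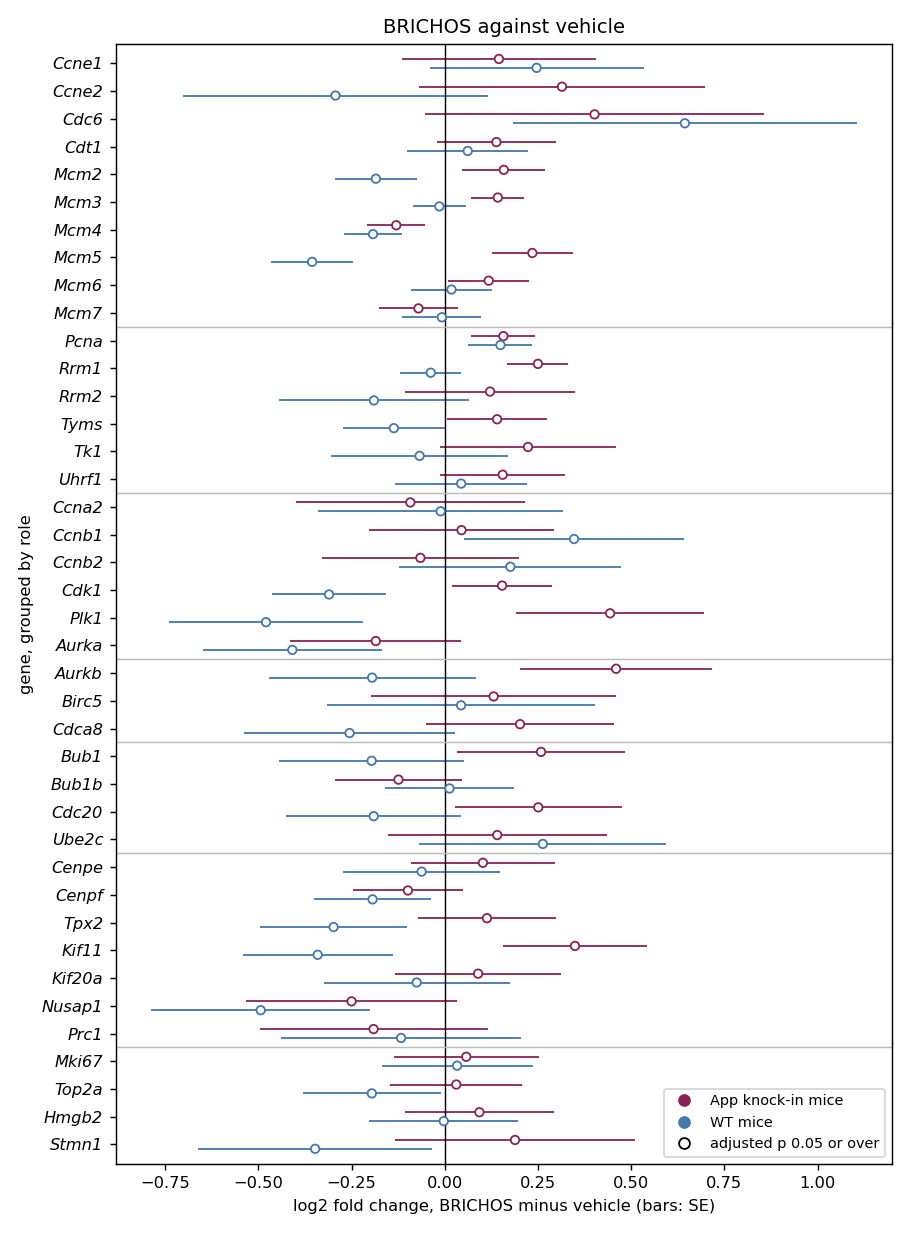
Log2 fold change of BRICHOS against vehicle for the 40 genes, by role, in App and in WT mice; bars are standard errors, and all points are open because no adjusted p was under 0.05. Values scatter about 0 in both strains, from -0.49 to 0.64, with those of WT mice mostly to the left of those of App mice.

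The interaction, the treatment difference in App mice minus that in WT mice, was called for 0 of the 40 genes by edgeR and by DESeq2 on all libraries, against 0.00648% of all genes called lower and 0 higher. An unadjusted p under 0.05 was found for 6 genes, Mcm2, Mcm5, Rrm1, Cdk1, Plk1 and Kif11, all positive, against 14.8% of all tested genes. Their interaction values were 0.34, 0.59, 0.29, 0.46, 0.92 and 0.69, and the lowest adjusted p was that of Mcm5 (edgeR adjusted p = 0.167). The larger number of strain calls with BRICHOS than with vehicle was thus not shown as a difference between treatments for any single gene.

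A wider list of 99 genes around the cycle, of which 97 could be tested, gave 27 calls higher and 8 lower in App vehicle against WT vehicle mice, with a median of 0.33. These were 27.8% higher and 36.1% in either direction, where 20.1% of all tested genes were called higher and 37% in all. Without App vehicle mouse 1 the calls were 19 higher and 4 lower, where 16.3% of all tested genes were called higher and 11.9% lower. With library totals they were 16 higher and 16 lower, where 13.0% of all tested genes were called higher and 33.7% lower. With BRICHOS the wider list gave 41 higher and 8 lower, that is 42.3% higher and 50.5% in either direction against 20.8% and 42.5% of all tested genes. It gave 0 calls in App mice between BRICHOS and vehicle by edgeR, with 9 at an unadjusted p under 0.05, against 10.8% of all tested genes. Orc1 and Cenpk were too low to test.

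Of 7 inhibitors of cyclin-dependent kinases, 4 were called higher and 2 lower with vehicle, 85.7% in all, against 37% of all tested genes. Cdkn1a, which encodes p21 and is switched on by p53 and other stress signals, stood at 62.0, 71.2 and 58.2 CPM in the WT vehicle mice and 68.5, 68.6 and 75.5 in the WT BRICHOS mice. App mice had 298, 327 and 274 with vehicle and 250.5, 441 and 256 with BRICHOS. The App mice were far above the WT mice, at 2.23 ± 0.19 (SE, edgeR adjusted p = 3.94e-06) with vehicle. Cdkn2a, the gene of p16INK4a and p19ARF, which the counts do not separate, gave 0.548, 0.297 and 0.149 CPM in the WT vehicle mice and 0.378, 0.788 and 0.114 in the WT BRICHOS mice. App mice had 3.24, 2.36 and 4.15 with vehicle and 1.94, 4.03 and 3.93 with BRICHOS. The WT vehicle libraries held 2 to 8 counts and the App vehicle libraries 36 to 56, with a fitted log2 fold change of 3.25 ± 0.56 (SE, edgeR adjusted p = 0.000884). Cdkn2c, p18INK4c, was measured at 4.25, 5.22 and 4.69 CPM in the WT vehicle mice and 4.03, 4.84 and 4.18 in the WT BRICHOS mice. App mice had 9.45, 10.1 and 10.7 with vehicle and 8.39, 9.21 and 9.67 with BRICHOS. It was higher in every App mouse, at 1.09 ± 0.13 (SE, edgeR adjusted p = 5.53e-05), and so was Cdkn2d in App vehicle mice, at 0.54 ± 0.17 (SE, edgeR adjusted p = 0.0268).

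In the other direction, Cdkn1c, p57, had 18.6, 20.6 and 23.9 CPM in the WT vehicle mice and 23.7, 25.1 and 26.4 in the WT BRICHOS mice. App mice had 9.26, 9.12 and 15.5 with vehicle and 10.5, 10.2 and 12.1 with BRICHOS. All App mice were lower, at -0.90 ± 0.18 (SE, edgeR adjusted p = 0.00246) with vehicle, and Cdkn1b, p27, was slightly lower at -0.21 ± 0.07 (SE, edgeR adjusted p = 0.0272). Cdkn2b, p15INK4b, was not called with vehicle, at 0.43 ± 0.27 (SE, edgeR adjusted p = 0.233). Ccnd1, cyclin D1, the partner of Cdk4 and Cdk6 in G1, stood at 192, 176 and 189 CPM in the WT vehicle mice and 198, 252 and 231 in the WT BRICHOS mice. App mice had 143, 145 and 166 with vehicle and 156, 173 and 163 with BRICHOS. The App mice were below the WT mice, at -0.30 ± 0.09 (SE, edgeR adjusted p = 0.0191) with vehicle and -0.47 ± 0.09 (SE, edgeR adjusted p = 0.00122) with BRICHOS. Ccnd2 was measured at 9.52, 15.4 and 14.8 CPM in the WT vehicle mice and 17.7, 17.5 and 16.3 in the WT BRICHOS mice. App mice had 22.5, 20.7 and 14.8 with vehicle and 13.1, 12.5 and 11.3 with BRICHOS. The strains overlapped with vehicle, at 0.55 ± 0.18 (SE, edgeR adjusted p = 0.034), while with BRICHOS the App mice were all lower, at -0.48 ± 0.18 (SE, edgeR adjusted p = 0.0561). Cdk4 was higher by 0.23 (edgeR adjusted p = 0.00768), and Ccnd3, Cdk2 and Cdk6 were not called, at 0.02, -0.21 and 0.04.

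**Figure D5:**
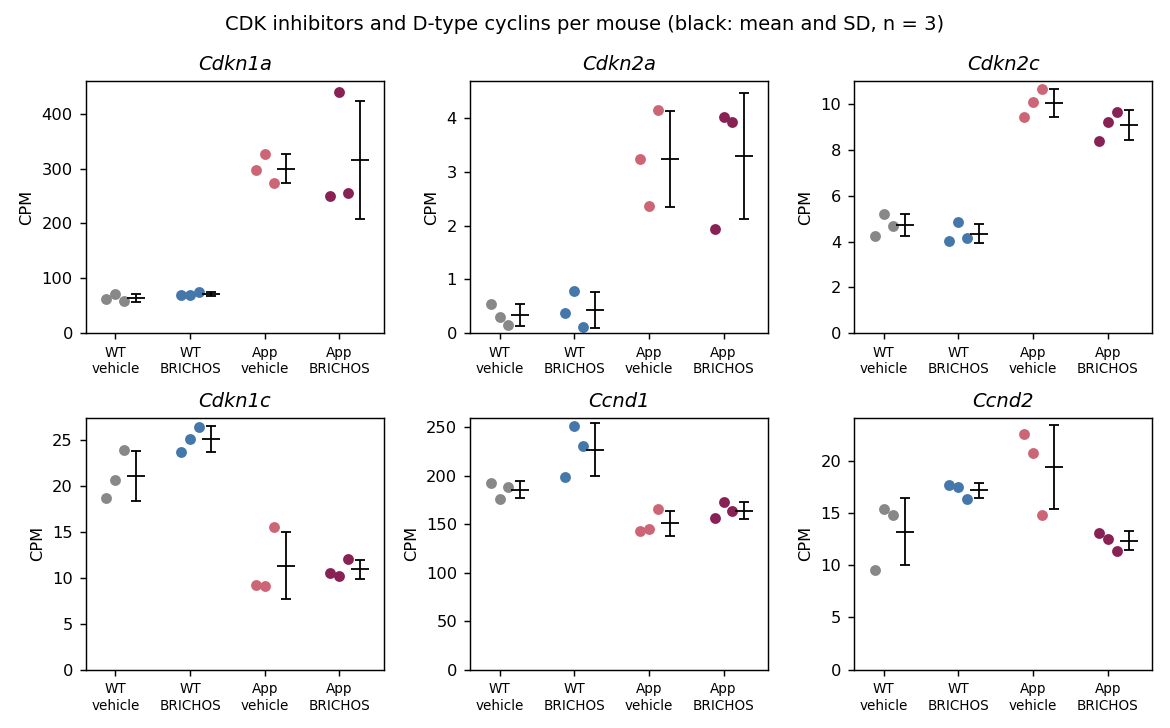
CPM of 4 inhibitors of cyclin-dependent kinases and 2 D-type cyclins in each mouse by group, with the mean and SD of 3 mice in black. Cdkn1a, Cdkn2a and Cdkn2c lie higher in all App mice, with Cdkn1a at 274 to 327 CPM in App vehicle mice against 58.2 to 71.2 in WT vehicle mice, and Cdkn1c and Ccnd1 lie lower.

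Of 35 tested genes of mitosis outside the 40, 10 were called higher and 2 lower with vehicle, that is 34.3% in all and 28.6% higher. Of 19 replication genes, 3 were called higher and 1 lower, that is 21.1% in all and 15.8% higher. Over all tested genes 37% were called and 20.1% were higher, so the share called in all was not above that of all genes in either list. The share called higher was above that of all genes for mitosis and below it for replication. Values were positive for 30 of the 35 mitosis genes, with a median of 0.52, and for 14 of the 19 replication genes, with a median of 0.28. Among the calls without overlap in the lists of CDC25, RB and E2F, replication and mitosis genes, the highest value was that of Cdc25c, a phosphatase that activates Cdk1, at 1.85 ± 0.67 (SE, edgeR adjusted p = 0.0476). It rests on few counts, with 0.113 to 0.342 CPM in WT mice and 0.302 to 1.61 in App mice of both treatments, which overlap. Aspm, a spindle pole protein, had 1.42 ± 0.32 (SE, edgeR adjusted p = 0.00509), and Clspn, claspin of the replication checkpoint, had 1.36 ± 0.21 (SE, edgeR adjusted p = 0.000385). Next came the kinetochore genes Spc25, at 1.26 ± 0.34 (SE, edgeR adjusted p = 0.0127), and Nuf2, at 1.15 ± 0.32 (SE, edgeR adjusted p = 0.0143). The lower ones were Ncaph, a condensin subunit, at -1.12 ± 0.11 (SE, edgeR adjusted p = 1.35e-05), Espl1, separase, at -0.72 ± 0.08 (SE, edgeR adjusted p = 4.7e-05), and E2f3, at -0.32 ± 0.09 (SE, edgeR adjusted p = 0.0123).

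Of 17 genes of the RB and E2F group, 2 were called higher and 1 lower, that is 17.6% in all and 11.8% higher, below the 37% and 20.1% of all tested genes. The first was E2f1, an activator of S phase genes, at 2.74, 3.14 and 3.13 CPM in WT vehicle mice and 4.86, 5.97 and 7.41 in App vehicle mice, without overlap. Its difference was 1.01 ± 0.20 (SE, edgeR adjusted p = 0.00208), and the second, the repressor E2f6, had 0.48 ± 0.13 (SE, edgeR adjusted p = 0.0122). Foxm1, the factor of G2 and mitosis genes, had 0.34 ± 0.16 (SE, edgeR adjusted p = 0.108) with vehicle and 0.72 ± 0.16 (SE, edgeR adjusted p = 0.00336) with BRICHOS, and Mybl2, which encodes B-Myb, 0.43 ± 0.47 (SE, edgeR adjusted p = 0.503) with vehicle.

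Several of these counts could be shared with neighbours. The kit marks strand, but the strand setting of the counting was not given in the sources used here, and exons of Ccne2, Mcm7, Tk1, Ccna2, Plk1, Cdca8, Cdc20, Ube2c, Kif20a, Nusap1 and Prc1 overlap those of a gene on the opposite strand. Named pseudogenes exist for Pcna, Tyms, Ccnb1 and Ccnb2. Values of these genes are less certain in that respect than those of Cdk1, Cenpe, Cenpf or Mki67, which have neither.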

How the data were processed

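The authors trimmed the reads with Cutadapt, aligned them with STAR to GRCm38 and counted them per gene with featureCounts, and deposited 1 table of raw counts (whole numbers, not normalised) for 12 libraries. The tools are named in the submitters' notes and the study's methods. Replicates are separate mice, 3 in each group. Gene IDs were matched to symbols with the GRCm38 annotation. The members and all gene lists were chosen with earlier results of these data known.

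Counts were analysed in R 4.3.3 with edgeR 4.0.16: genes with about 10 counts in enough libraries were kept (filterByExpr), library sizes scaled by TMM, and quasi-likelihood tests made on 4 group means with all libraries in 1 fit. P-values were adjusted over all 15425 genes, with a threshold of 0.05. SE is the absolute log2 fold change divided by the root of F. CPM values use TMM library sizes, and per kb values divide by the union of exons. The fit was tested on simulated data. All members are named, with levels per mouse for those called in any comparison and for 6 proliferation genes, and the wider genes by rule: all CDK inhibitors, D-type cyclins and G1 kinases and growth factor genes, and otherwise up to 5 in each direction with the largest change among calls without overlap. E2f1, E2f6, Foxm1 and Mybl2 were named outside this rule after their values were seen. Levels per mouse are also given for Stmn1, which was not called in any comparison. Alternatives were DESeq2 1.42.0 (Wald test), other scalings, filters and thresholds, the replicate number as a block and leaving out each library. Promoters came from RefSeq. Counting error sets the limit for the lowest genes.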

Additional observations from a re-analysis of the deposited data

How the results depend on the processing

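Over all settings run, the direction of the strain medians held. For App against WT with vehicle, the 17 calls among the 40 genes lay between 14 and 21 when 1 library was left out, and were 8 with a log2 fold change over 1 required, 8 without App vehicle mice 1 and 2 and 7 without WT vehicle mice 1 and 2, where fewer samples were fitted. These last 2 analyses were chosen after seeing the data. With BRICHOS the 27 calls lay between 22 and 27 when 1 library was left out and were 13 with a log2 fold change over 1 required. The medians of 0.46 and 0.84 lay between 0.43 and 0.58 and between 0.73 and 1.13 when 1 library was left out, the last without WT BRICHOS mouse 2, and were 0.27 and 0.57 with library totals, by construction of that scale. At an unadjusted p under 0.05 the counts of 0 became 1 for BRICHOS in App mice, 2 for BRICHOS in WT mice and 6 for the interaction. Of all tested genes 10.8%, 11.4% and 14.8% passed that threshold in these comparisons. The wider list, with 35 calls with vehicle, gave 23 to 37 when 1 library was left out, 13 with a log2 fold change over 1 required, 14 without App vehicle mice 1 and 2 and 21 without WT vehicle mice 1 and 2, and its 0 calls for BRICHOS in App mice became 9 at an unadjusted p under 0.05.

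Of 373 single-gene values with vehicle over up to 22 alternatives, 332 kept their call, 41 lost it and 0 turned; with BRICHOS 501 of 539 kept it, 37 lost it and 1 turned, that of Pcna (-0.018 with library totals). With the replicate number as a block there were 20 calls with vehicle and 27 with BRICHOS and 0 for the treatment in either strain. Correlations of deviations between same-numbered mice were 0.06 to 0.17 with vehicle and -0.01 to 0.22 with BRICHOS. Differently numbered mice were not correlated, so these values cannot show whether the numbers pair the mice. The cause of the change in calls was not tested. Depth limits Ccne1, Ccne2, Cdc6 and Ccnb1, which had under 10 counts in some libraries.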

Other observations

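Genes of the growth factor signals that keep microglia alive and let them divide were listed beside the cell cycle genes, and 5 of 10 were called higher and 1 lower in App vehicle against WT vehicle mice, where 20.1% of all tested genes were called higher and 16.9% lower, 37% in all. Csf1, the ligand of the CSF1 receptor, stood at 152, 152 and 127 CPM in the WT vehicle mice and 123, 144 and 175 in the WT BRICHOS mice. App mice had 1775, 2079.8 and 1703 with vehicle and 1625, 2046 and 1693 with BRICHOS. Its log2 fold change was 3.69 ± 0.15 (SE, edgeR adjusted p = 1.17e-08) with vehicle. Igf1, an insulin-like growth factor, had 12.8, 11.7 and 15.2 CPM in the WT vehicle mice and 13.5, 18.1 and 16.5 in the WT BRICHOS mice. App mice had 253, 254 and 257 with vehicle and 253, 308 and 286 with BRICHOS. The difference was 4.27 ± 0.12 (SE, edgeR adjusted p = 1.47e-09). No App mouse came near the WT range for either gene. Csf2ra, a subunit of the GM-CSF receptor, gave 1.22 ± 0.06 (SE, edgeR adjusted p = 2.99e-08), the microglial factor Irf8 0.50 ± 0.07 (SE, edgeR adjusted p = 0.000183) and Csf3r 0.21 ± 0.06 (SE, edgeR adjusted p = 0.02).

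Csf1r, the receptor itself, was lower in App vehicle mice, at -0.37 ± 0.06 (SE, edgeR adjusted p = 0.000891), and its second ligand Il34, at 1.36 to 1.86 CPM in WT vehicle mice, was not called with vehicle, at -0.48 ± 0.34 (SE, edgeR adjusted p = 0.282), and was called lower in App mice with BRICHOS, at -2.27 ± 0.36 (SE, edgeR adjusted p = 0.000396). The transcription factors Spi1 and Runx1 and the receptor subunit Csf2rb were not called with vehicle, at -0.18, 0.06 and 0.21. None of the 10 was called between BRICHOS and vehicle by edgeR in either strain. An unadjusted p under 0.05 was found for 2 in App mice and 1 in WT mice, against 10.8% and 11.4% of all tested genes.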
